A study of Mus musculus with 6 samples.

Results

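The genes described here encode potassium, TRP, chloride and epithelial sodium channels and their accessory subunits. They were chosen by gene symbol. The rule took names that begin with Kcn and a family letter and number, Trpc, Trpm or Trpv and a number, Clcn, Clca, Ano and a number, or Scnn1, and it took Cftr. It matched 151 of the 24346 gene symbols in the tables, with 274 of the 34535 transcripts. Of these, 93 are potassium channel genes or accessory subunits, 21 are TRP channels, 27 are chloride channel genes and 3 are epithelial sodium channel subunits. The other 7 matched by name only and encode no channel. They are Trpc4ap, an adaptor of TRPC4, the pseudogene Clca4c-ps, and 5 non-coding transcripts that include Kcnq1ot1.

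RNA was sequenced from luminal cells, the secretory epithelium of the prostate gland, sorted from C57BL/6 mice aged 4 months. The 3 CSF1 libraries (titled PB) came from mice with a mouse Csf1 transgene, which encodes a macrophage growth factor, expressed from the rat probasin promoter, an androgen-driven promoter of prostate epithelium. The 3 WT libraries came from littermates without the transgene. In each group the library titles open with 3, 5 and 8, used below as replicate numbers. In every title a slash and the same second number follow, so the titles may be dates. If so, each CSF1 library may share a batch with the WT library of the same number. The labels do not say whether each library is a separate animal or a pool, so p-values measure the spread between these libraries, which may be technical. Levels are given in FPKM, a unit that corrects fragment numbers for transcript length and library size, summed over the transcripts of a gene.

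Secretory epithelia move salt and water with channels on opposite faces of the cell. Potassium channels set the membrane voltage that drives chloride out through apical chloride channels, and the epithelial sodium channel takes sodium back up. TRPV6 is a calcium-selective uptake channel. In the prostate, luminal cells secrete a fluid rich in zinc and citrate.

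Tandem-pore potassium channels are potassium leak channels that hold the resting voltage, and each subunit carries a pair of pore loops. The coding stretch around each pore loop's selectivity filter is shown for the 3 tandem-pore genes described first below, because these 3 genes gave 3 different outcomes. Capitals mark the codons of the filter signature, read from GENCODE M21 transcripts (GRCm38) in the longest open reading frame, in the sense direction. Each of the 3 genes held the signature at 2 places.
Kcnk3, first pore: atcaccaccatcGGCTATGGTcatgcggcg
Kcnk3, second pore: ctcaccaccatcGGCTTCGGCgactatgtg
Kcnk5, first pore: atcaccaccatcGGTTATGGCaatgtggct
Kcnk5, second pore: atctccaccattGGCTTTGGGgactttgtg
Kcnk1, first pore: ctctccaccacaGGCTATGGCcacacggtg
Kcnk1, second pore: ctgagcaccatcGGCCTGGGGgactatgtt

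Most channel genes were near or at 0 in these cells. Of the 151 genes, 33 (21.9%) had a mean of at least 1 FPKM in a group, against 47.5% of all 24346 genes. Among the other 118, 31 were listed at 0 in all 6 libraries, and the highest value in any library was 1.503 FPKM. By class, 12 of 93 potassium channel genes, 6 of 21 TRP channels, 12 of 27 chloride channel genes, 2 of 3 epithelial sodium channel subunits and 1 of the 7 non-channel matches reached 1 FPKM. None of the 15 inward rectifiers and none of the 7 TRPC channels did, and 2 of 40 voltage-gated potassium channel genes did.

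The comparison asks which of these channels change in luminal cells when the prostate epithelium makes CSF1. Tests were made with limma on log2(FPKM + 1) for the 10951 genes whose mean over all libraries reached 1 FPKM, and a call needed a Benjamini-Hochberg adjusted p under 0.05. Of the 33 channel genes at 1 FPKM, 28 were tested, and 12 were higher and 3 were lower in CSF1, while 13 did not pass. Over all tested genes, 24.9% were higher and 7.47% were lower, together 32.4%. A gene near 0 in WT entered the test only where it was high in CSF1. Of the 12 higher genes, 7 had a WT mean under 1 FPKM, and the share that was higher is not read as particular to channels. Among the 22 channel genes at 1 FPKM or more in WT, 21 were tested, of which 5 were higher, 3 were lower and 13 did not pass. The median log2 change of the 28 tested channel genes was 0.30, and that of all tested genes was 0.17. The groups did not overlap in 16 of the 28, against 47.7% of all tested genes.

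**Figure D1:**
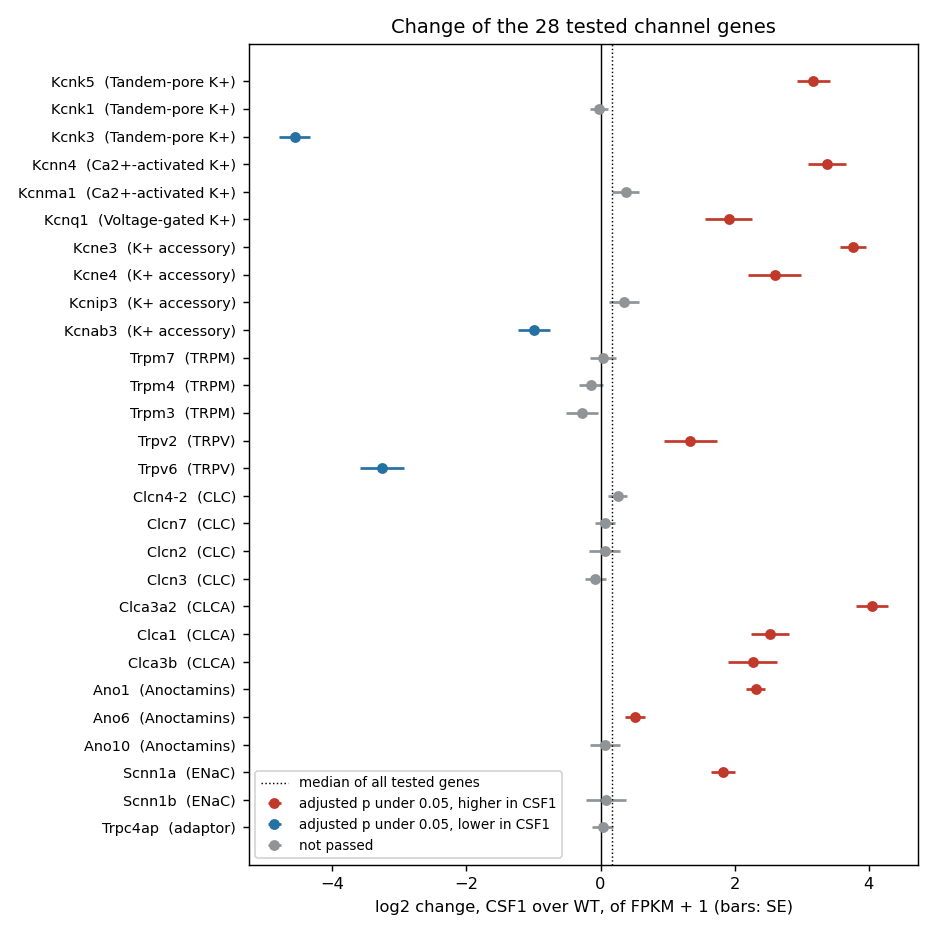
Log2 change of FPKM + 1, CSF1 over WT, of the 28 tested channel genes with the standard error as bars, grouped by class, with the median of all tested genes (0.17) as a dotted line. Changes ran from -4.56 for Kcnk3 to 4.05 for Clca3a2, and the 4 CLC genes lay near 0.

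Coverage per FPKM, which rises with sequencing depth, was 4.17 to 5.01 in CSF1 and 2.72 to 3.50 in WT, so the CSF1 libraries were deeper. Luminal markers were present in both groups, with Krt8 at 1724 and Krt18 at 2132 FPKM in CSF1, and 1335 and 2279 FPKM in WT. Of 8 luminal markers, Epcam and Cdh1 were higher in CSF1, Hoxb13 was lower and 5 did not pass (summed 5062 to 6885 in CSF1, 4821 to 6222 in WT). Markers of other cell types moved with the groups. All 12 macrophage markers were higher in CSF1, and their summed level was 609 to 2442 FPKM in CSF1 and 16.7 to 93.1 FPKM in WT. The same held for 8 of 8 tested fibroblast and smooth muscle markers of 10 listed (472 to 747 in CSF1, 99.8 to 109.5 in WT), 3 of 3 tested basal markers of 4 listed (393 to 526 in CSF1, 26.9 to 40.0 in WT) and 2 of 2 tested endothelial markers of 5 listed (8.33 to 12.9 in CSF1, 1.08 to 2.07 in WT). Of 8 lymphocyte markers 1 was tested and was higher (summed 5.07 to 18.4 in CSF1, 0.448 to 0.785 in WT), and Ms4a1 was listed at 0 in WT. Of the 7 neuroendocrine and neuronal markers 1 was tested and did not pass (summed 1.78 to 7.95 in CSF1, 4.10 to 6.05 in WT). Of the 4 red blood cell markers 3 were tested and none passed (summed 404 to 3772 in CSF1, 64.7 to 336 in WT), and Hba-a2 was listed at 0 in all libraries. Their part in the channel results was not tested. In bulk samples, fewer cells of a type and less RNA per cell cannot be told apart.

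Among tandem-pore potassium channels, Kcnk3 fell, Kcnk5 rose and Kcnk1 did not pass. Kcnk3 encodes the acid-sensitive leak channel TASK-1, on chromosome 5 (30588170 to 30625270, plus strand, GRCm38). Its level was 6.22, 5.31 and 5.12 FPKM in the CSF1 libraries 3, 5 and 8, against 104, 172 and 201 FPKM in the WT libraries of the same numbers. Every CSF1 library lay far below every WT library, and the CSF1 values were close together. The mean was 28.6 times lower in CSF1 (log2 change -4.56 ± 0.23, ± giving the SE of a log2 change; limma adjusted p = 6.66e-06), and only 5 of 10951 tested genes had a more negative change. Mean read depth over the Kcnk3 transcript was 22.4 to 26.6 in CSF1 and 332 to 603 in WT, so the CSF1 values do not rest on a few reads. An opposite-strand gene, Gm9899, overlaps 229 exonic bases of Kcnk3 in GENCODE, and it was at 0 FPKM in both groups.

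Kcnk5 encodes TASK-2, a leak channel of transporting epithelia that opens in alkaline conditions, on chromosome 14. It was at 16.3, 23.7 and 23.7 FPKM in CSF1 and at 0.984, 1.17 and 2.33 FPKM in WT. The groups did not overlap, and the mean was 14.2 times higher in CSF1 (log2 change 3.17 ± 0.24, limma adjusted p = 5.01e-05). Kcnk1 encodes TWIK-1, and its transcript was the most abundant of all the channel genes. It was at 213, 199 and 191 FPKM in CSF1 and at 191, 189 and 236 FPKM in WT, with overlapping groups and a log2 change of -0.02 ± 0.13 (limma adjusted p = 0.914). In CSF1, Kcnk1 and Kcnk3 averaged 201 ± 11.1 and 5.55 ± 0.590 FPKM (± giving the SD of a mean FPKM, n = 3 libraries in each group). In WT they averaged 205 ± 26.4 and 159 ± 49.6 FPKM, and their ranges overlapped. Kcnk6 was at 0.581, 0.798 and 0.957 FPKM in CSF1 and at 0.760, 1.47 and 1.06 FPKM in WT, fell under the filter, and had overlapping groups (exact two-sided permutation p = 0.3). The summed level of the 14 tandem-pore genes was 222 to 237 FPKM in CSF1 and 297 to 440 FPKM in WT, and 6 of the 14 were listed at 0 in every WT library.

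Of the calcium-activated potassium channels, Kcnn4 rose and Kcnma1 did not pass. Kcnn4 encodes the intermediate-conductance channel KCa3.1, which opens with intracellular calcium in secretory epithelia and also in lymphocytes and macrophages. It was at 85.5, 112 and 86.1 FPKM in CSF1 and at 4.62, 10.1 and 11.1 FPKM in WT, so that the lowest CSF1 library exceeded the highest WT library several times over. The mean was 11.0 times higher, and the log2 change was 3.38 ± 0.28 (limma adjusted p = 7.57e-05). In each library 86.3% to 100% of the Kcnn4 FPKM was assigned to the transcript NM_008433. In CSF1, Kcnn4 was highest in replicate 5, and the macrophage and lymphocyte marker sums in replicate 8. In WT, Kcnn4 and the macrophage sum were highest in replicate 8, and the lymphocyte sum in replicate 5. The part of these markers in the Kcnn4 result was not tested. Kcnma1 encodes the large-conductance BK channel. It was at 18.0, 17.7 and 11.4 FPKM in CSF1 and at 13.3, 11.9 and 9.93 FPKM in WT, where the groups overlapped, and it did not pass (log2 change 0.38 ± 0.20, limma adjusted p = 0.197). It passed without CSF1 replicate 8 (log2 change 0.58, adjusted p = 0.0393), and its adjusted p ran from 0.0393 to 0.827 over the alternatives.

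The gamma subunits that shift the voltage at which BK channels open are encoded outside this name rule. Lrrc26 was high in every library, at 155, 167 and 151 FPKM in CSF1 and at 105, 175 and 204 FPKM in WT, and did not pass (limma adjusted p = 0.961). Lrrc52, whose product partners the sperm channel KCNU1 and can also modulate BK channels, fell to 1.58, 4.67 and 2.78 FPKM in CSF1, against 23.7, 47.9 and 48.4 FPKM in WT (log2 change -3.36 ± 0.35, limma adjusted p = 0.000206). Lrrc38 and Lrrc55, the other genes of that group, were listed at 0 in WT.

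Kcnq1 was the sole tested voltage-gated potassium channel gene, and it rose together with the gene of a partner subunit. Kcnq1 forms a constitutively open channel when paired with KCNE3, as at the basolateral face of intestinal crypt cells. Kcnq1 was at 4.44, 4.08 and 3.79 FPKM in CSF1, and was listed at 0, 0 and 1.47 FPKM in WT (log2 change 1.91 ± 0.35, limma adjusted p = 0.00378). Its exons overlap the opposite-strand transcript Kcnq1ot1 over 121 bases, and reads of the pair cannot be told apart where the use of strand is not stated. Kcnq1ot1 was at 0.498, 0.278 and 0.220 FPKM in CSF1 and at 1.36, 0.829 and 0.328 FPKM in WT. Kcne3 was at 18.2, 12.4 and 14.6 FPKM in CSF1 and at 0.0841, 0.236 and 0.180 FPKM in WT. Kcne3 had the largest log2 rise among the tested potassium channel genes in the main test (log2 change 3.77 ± 0.19, limma adjusted p = 6.66e-06). This rank depended on the value added to FPKM. With 5 added in place of 1, its log2 change was 1.95, under 2.89 for Kcnn4 and 2.01 for Kcnk5. The Kcne3 mean was 90.4 times higher in CSF1, a fold that rests on WT values near 0. The Kcne3 signal in CSF1 was spread over 4 of its 5 listed transcripts, of which none held more than 43.3% in a library.

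Kcne4, whose product inhibits several voltage-gated channels, was at 6.86, 12.04 and 3.14 FPKM in CSF1 and at 0.167, 0.609 and 0.0163 FPKM in WT. All CSF1 libraries were above all WT libraries, with a wide spread in CSF1 (log2 change 2.60 ± 0.40, limma adjusted p = 0.00151). Smooth muscle is known to express Kcne4. The fibroblast and smooth muscle markers summed to 608, 747 and 472 FPKM in the same CSF1 libraries. In WT they summed to 99.8, 100.4 and 109.5 FPKM. Their order matched that of Kcne4 in CSF1 and not in WT. There, replicate 8 was lowest for Kcne4 and highest for the markers. Most of each sum was 1 marker, Dcn, at 455, 522 and 394 FPKM in CSF1 and at 95.6, 88.2 and 102 FPKM in WT. Dcn too was highest in WT replicate 8, so the mismatch in WT rests mostly on that gene. The sum of the other markers was not compared. The part of the fibroblast and smooth muscle markers in the Kcne4 result was not tested. Kcnab3, which encodes a cytoplasmic beta subunit of voltage-gated channels, fell to 1.001, 1.65 and 0.552 FPKM in CSF1, against 2.52, 3.36 and 3.20 FPKM in WT (log2 change -0.99 ± 0.24, limma adjusted p = 0.0147). The Kcnab3 call was lost without WT replicate 5 (adjusted p = 0.0615) and without WT replicate 8 (0.0507), and over all alternatives its adjusted p ran from 0.00208 to 0.0615. Kcnip3, which encodes a calcium-binding partner of Kv4 channels, was at 4.17, 2.80 and 2.29 FPKM in CSF1 and at 2.58, 1.87 and 2.06 FPKM in WT and did not pass (limma adjusted p = 0.274). Kcna3, the gene of Kv1.3, a channel known from lymphocytes and macrophages, was at 1.34, 0.910 and 1.27 FPKM in CSF1 and at 0.0179, 0 and 0 FPKM in WT. It lay under the filter, and its groups did not overlap (exact two-sided permutation p = 0.1, the smallest that 3 libraries against 3 allow). In CSF1, Kcna3 was highest in replicate 3, and the macrophage and lymphocyte marker sums in replicate 8. In WT its only value above 0 was in replicate 3, where both sums were lowest. The part of these markers in the Kcna3 values was not tested.

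**Figure D2:**
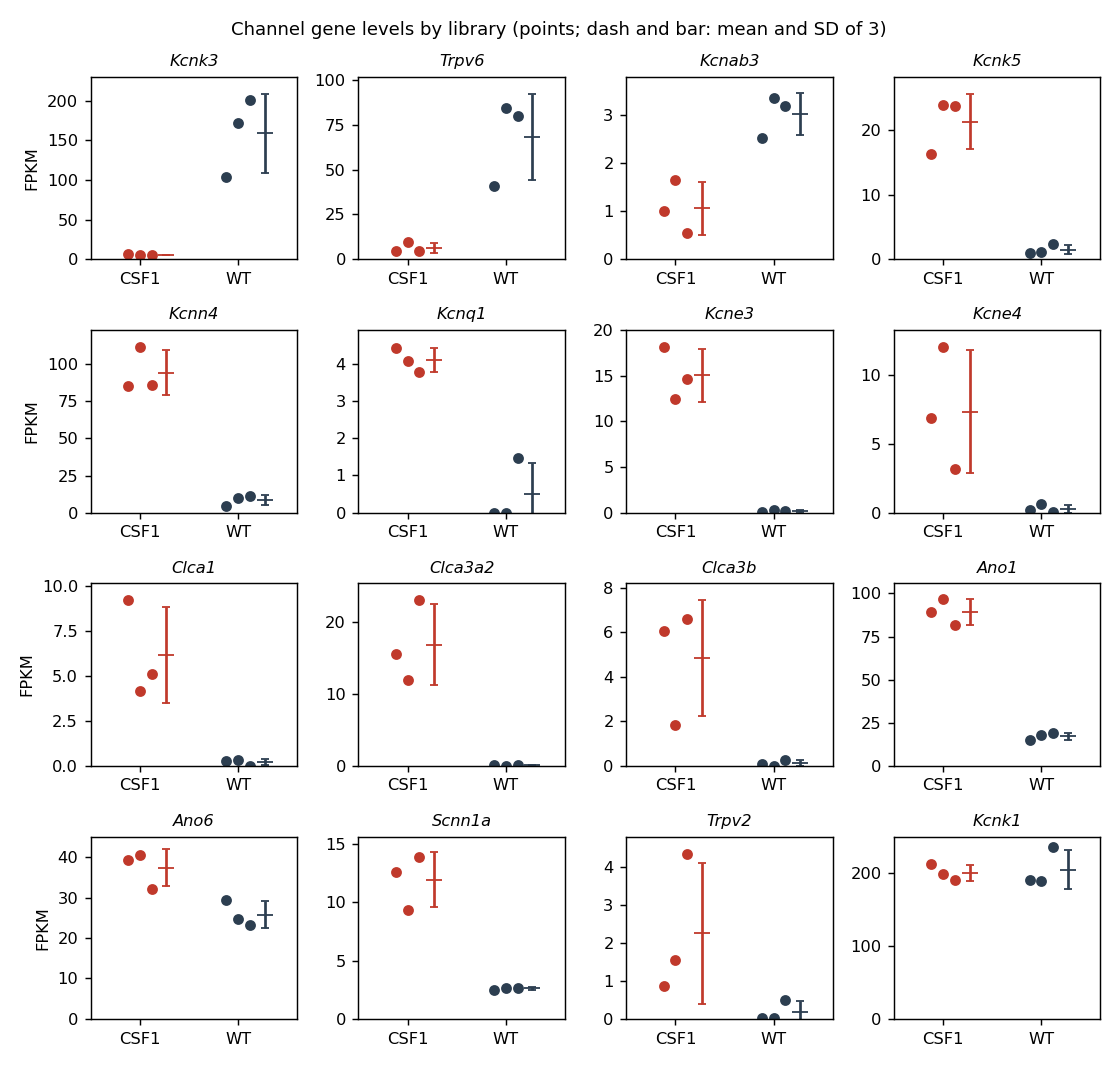
FPKM of 16 channel genes in each CSF1 and WT library (points), with the group mean and SD of 3 libraries beside them and each vertical axis starting at 0. Kcnk3, Trpv6 and Kcnab3 lie lower in every CSF1 library, Kcnk1 overlaps between the groups, and the other 12 lie higher in every CSF1 library.

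Of the 5 tested TRP channels, Trpv6 fell, Trpv2 rose and 3 did not pass. Trpv6 encodes an epithelial calcium uptake channel, and it lies on chromosome 6 (41620619 to 41636405, minus strand, GRCm38). Its promoter is printed because its fall was the largest after that of Kcnk3 among the channel genes. It runs from 250 bases before to 50 after the start (RefSeq, GRCm38.p6), with capitals on the motif matches named below.
Trpv6, chr6:41636356-41636655, minus strand: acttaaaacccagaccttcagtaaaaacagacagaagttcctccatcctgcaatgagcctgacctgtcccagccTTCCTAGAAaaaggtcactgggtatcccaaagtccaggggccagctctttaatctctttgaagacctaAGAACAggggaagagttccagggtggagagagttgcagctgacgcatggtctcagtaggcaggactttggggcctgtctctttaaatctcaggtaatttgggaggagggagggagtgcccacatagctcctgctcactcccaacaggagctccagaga

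Trpv6 was at 4.54, 9.46 and 4.62 FPKM in CSF1 and at 40.7, 84.4 and 79.6 FPKM in WT. The groups were far apart. In WT replicate 3 was the lowest library, and in CSF1 replicates 3 and 8 were nearly alike. The mean was 11.0 times lower in CSF1 (log2 change -3.26 ± 0.33, limma adjusted p = 0.000196). Trpv2, which encodes a channel that is prominent in macrophages, was at 0.860, 1.55 and 4.35 FPKM in CSF1 and at 0.0123, 0.0225 and 0.507 FPKM in WT (log2 change 1.34 ± 0.39, limma adjusted p = 0.0303). In CSF1 replicates 3, 5 and 8 the macrophage markers summed to 609, 750 and 2442 FPKM, and in the WT replicates to 16.7, 19.7 and 93.1 FPKM, so that replicate 8 was highest in both groups for Trpv2 and for the markers. Their part in the Trpv2 result was not tested. Without CSF1 replicate 8, the mean of Trpv2 over the other 5 libraries was 0.590 FPKM, so it lay under the filter and was not tested, and Trpv2 entered the test through that library. The Trpv2 call was lost without CSF1 replicate 5 (adjusted p = 0.0504), without WT replicate 3 (0.0878) or 5 (0.0959), with a pseudocount of 5, with no filter and with quantile normalization, where its adjusted p was highest (range 0.0108 to 0.263).

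Trpv4, a channel opened by cell swelling and warmth, was at 0.859, 0.875 and 1.90 FPKM in CSF1 and at 0.250, 0.0664 and 0.207 FPKM in WT, under the filter, with groups that did not overlap (exact two-sided permutation p = 0.1). None of the 3 tested TRPM genes passed. Trpm4, a calcium-activated monovalent cation channel, was at 7.73, 9.23 and 5.86 FPKM in CSF1 and at 8.47, 8.19 and 8.53 FPKM in WT (limma adjusted p = 0.583). Trpm7, a magnesium-permeable channel with a kinase domain, was at 6.34, 6.15 and 4.49 FPKM in CSF1 and at 6.57, 5.41 and 4.55 FPKM in WT (adjusted p from limma, 0.919). The groups overlapped for both genes. Trpm3 was at 1.43, 1.63 and 0.655 FPKM in CSF1 and at 1.97, 1.47 and 1.57 FPKM in WT, did not pass (limma adjusted p = 0.419), and was called lower with quantile normalization (adjusted p = 0.0230, over a range of 0.0230 to 0.825). The adaptor gene Trpc4ap was at 52.1, 56.6 and 51.2 FPKM in CSF1 and at 43.2, 53.2 and 61.5 FPKM in WT (limma adjusted p = 0.900).

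**Figure D3:**
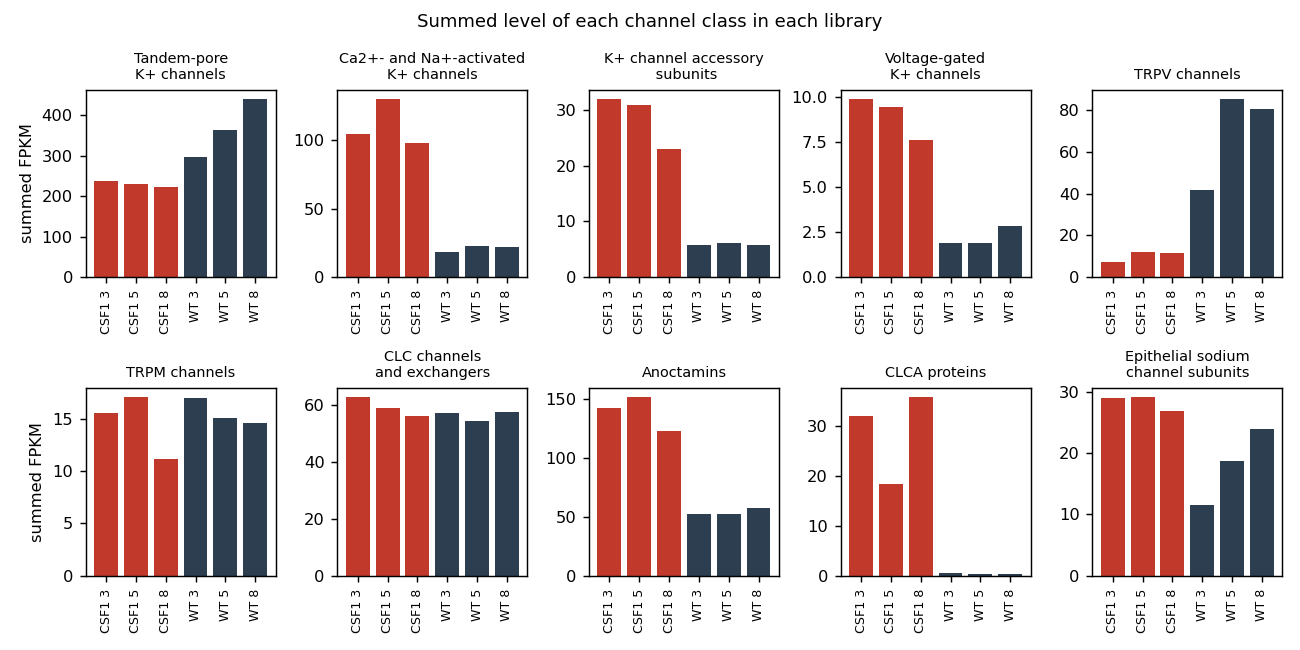
Summed FPKM of each channel class in each CSF1 and WT library, as bars from 0. The TRPV and tandem-pore sums are lower in every CSF1 library, those of the CLCA, anoctamin, calcium-activated, voltage-gated and accessory genes and of the epithelial sodium channel are higher, and those of the TRPM and CLC genes overlap.

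Of the 10 anoctamin genes, 3 were tested, of which Ano1 and Ano6 rose and Ano10 did not pass. Ano1 encodes TMEM16A, the calcium-activated chloride channel of secretory epithelia, on chromosome 7. It was at 89.1, 96.7 and 81.8 FPKM in CSF1 and at 14.9, 17.8 and 18.8 FPKM in WT. The libraries of each group lay close together, with no overlap, and the mean was 5.20 times higher in CSF1 (log2 change 2.31 ± 0.14, limma adjusted p = 1.67e-05). Ano6, which encodes a phospholipid scramblase that also conducts ions, was at 39.4, 40.6 and 32.1 FPKM in CSF1 and at 29.5, 24.7 and 23.2 FPKM in WT (log2 change 0.52 ± 0.15, limma adjusted p = 0.0321). The Ano6 call did not hold with quantile normalization or median-ratio scaling, nor without CSF1 replicate 3 (adjusted p = 0.0978) or 5 (0.108) or WT replicate 5 (0.108) or 8 (0.0924), over a range of 0.0206 to 0.213. Ano10 was at 9.17, 13.3 and 8.58 FPKM in CSF1 and at 7.51, 9.34 and 12.7 FPKM in WT and did not pass (limma adjusted p = 0.854). Ano8 was listed at 3.38, 0 and 0 FPKM in CSF1 and at 0, 0 and 2.43 FPKM in WT and was not tested. Its exons overlap 80 bases of Dda1 on the opposite strand, a gene at 37.5 FPKM in CSF1 and 39.7 FPKM in WT.

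The CLCA genes encode secreted or membrane-bound proteases that modulate calcium-activated chloride channels. They lie side by side on chromosome 3, and 3 of 3 tested rose. Clca3a2 was at 15.6, 11.9 and 22.9 FPKM in CSF1 and at 0.0364, 0 and 0.0908 FPKM in WT (log2 change 4.05 ± 0.24, limma adjusted p = 1.51e-05). Clca1, whose product is a mucus component of goblet cells, was at 9.18, 4.15 and 5.07 FPKM in CSF1 and at 0.265, 0.325 and 0 FPKM in WT (log2 change 2.52 ± 0.28, limma adjusted p = 0.000318). Clca3b was at 6.03, 1.85 and 6.60 FPKM in CSF1 and at 0.0912, 0 and 0.250 FPKM in WT (log2 change 2.27 ± 0.37, limma adjusted p = 0.00212). These genes were near 0 in every WT library and passed the filter through CSF1. Clca3a1 was at 1.28, 0.574 and 1.31 FPKM in CSF1 and at 0.0612, 0.0159 and 0.0872 FPKM in WT, under the filter, with no overlap (exact two-sided permutation p = 0.1). Of the 50-base words in Clca3a1 transcripts, 22.2% also occur in Clca3a2 and 3.34% in Clca3b, so the split of reads between these genes is uncertain.

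Promoters of 24 of the 33 channel genes at 1 FPKM were in the table, with 9 of the 12 higher genes and 1 of the 3 lower ones, and 5 motifs were searched on both strands. The STAT word TTCNNNGAA and the androgen receptor core AGAACA both occurred in Trpv6, the lower gene, and in 9.55% and 21.3% of the 27025 genes with a promoter entry. TTCNNNGAA occurred in 0 of the 9 higher genes and in 3 of the 11 that did not pass. AGAACA occurred in 1 of the 9 higher genes, Trpv2, and in 0 of the 11 that did not pass. Counts of the other motifs are not given here. A match describes these letters and is no evidence of binding.

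The CLC genes encode chloride channels and proton-coupled exchangers, most of them in endosomes and lysosomes. All 4 tested did not pass. Clcn3 was at 29.5, 26.7 and 21.5 FPKM in CSF1 and at 29.6, 25.6 and 26.4 FPKM in WT (log2 change -0.08 ± 0.15, limma adjusted p = 0.742). Clcn4-2 was at 22.3, 19.3 and 21.2 FPKM in CSF1 and at 16.0, 17.4 and 18.7 FPKM in WT, with groups that did not overlap but a difference that did not pass (log2 change 0.25 ± 0.14, limma adjusted p = 0.192). Clcn7, the lysosomal exchanger, was at 8.86, 10.5 and 10.9 FPKM in CSF1 and at 9.48, 9.53 and 9.71 FPKM in WT (log2 change 0.07 ± 0.15, limma adjusted p = 0.773). Clcn2 was at 1.43 ± 0.362 FPKM in CSF1 and at 1.33 ± 0.395 FPKM in WT (limma adjusted p = 0.869). The summed level of the 9 CLC genes was 56.0 to 62.9 FPKM in CSF1 and 54.4 to 57.6 FPKM in WT. The cyclic AMP-regulated chloride channel gene Cftr stayed far under 1 FPKM, at 0.303, 0.167 and 0.256 FPKM in CSF1 and at 0.0206, 0.00469 and 0.0604 FPKM in WT.

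Of the epithelial sodium channel subunits, which form 1 channel together, alpha rose, beta did not pass and gamma lay under the filter. Scnn1a, the alpha subunit gene, was at 12.6, 9.34 and 13.9 FPKM in CSF1 and at 2.49, 2.68 and 2.69 FPKM in WT. The WT libraries were nearly alike, and the mean was 4.56 times higher in CSF1 (log2 change 1.82 ± 0.18, limma adjusted p = 0.000177). Scnn1b, the beta subunit gene, was at 15.5, 19.2 and 12.1 FPKM in CSF1 and at 8.84, 15.8 and 21.1 FPKM in WT, with overlapping groups (log2 change 0.09 ± 0.30, limma adjusted p = 0.857). Scnn1g, the gamma subunit gene, stayed under 1 FPKM, at 0.819, 0.660 and 0.815 FPKM in CSF1 and at 0.182, 0.301 and 0.120 FPKM in WT. Its groups did not overlap (exact two-sided permutation p = 0.1). With no filter on low values it was called higher in CSF1 (limma adjusted p = 0.00896).

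Other ion transport genes were listed with earlier results of these data known, as 161 genes in 15 groups. Of these, 73 were tested, and 31 (42.5%) were higher and 5 (6.85%) were lower in CSF1, beside 24.9% and 7.47% of all genes. Of 10 tested sodium pump genes, 6 were higher, 0 were lower and 4 did not pass. The largest log2 changes in that group were in the FXYD regulators of the pump. Fxyd4 was at 52.0, 63.5 and 103 FPKM in CSF1 and at 0.737, 0.840 and 3.26 FPKM in WT (log2 change 4.89, limma adjusted p = 5e-05), and Fxyd5 was at 40.2 ± 20.8 FPKM in CSF1 and at 2.78 ± 2.21 FPKM in WT (limma adjusted p = 0.000718).

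Regulators of the epithelial sodium channel were higher in 4 of 8 tested. The kinase gene Sgk1, which keeps the channel at the surface, was at 407, 283 and 349 FPKM in CSF1 and at 111, 126 and 86.1 FPKM in WT (log2 change 1.68 ± 0.19, limma adjusted p = 0.000305). Tmprss4, a membrane protease that can cleave the channel, was at 13.6 ± 0.936 FPKM in CSF1 and at 4.49 ± 1.48 FPKM in WT. Nedd4l, whose ubiquitin ligase removes the channel from the surface, was among the 4 as well, at 12.7 ± 0.796 FPKM in CSF1 and at 5.99 ± 0.867 FPKM in WT (limma adjusted p = 0.00198).

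Among anion channels of the bestrophin, LRRC8, TTYH and CLIC families 5 of 9 were higher and 0 lower. Lrrc8c, a subunit of the volume-regulated anion channel, was at 5.53 ± 1.33 FPKM in CSF1 and at 0.900 ± 0.573 FPKM in WT, and Clic1 was at 378 ± 56.6 FPKM in CSF1 and at 190.3 ± 31.7 FPKM in WT. Of 9 cation-chloride cotransporter and kinase genes 2 were higher, the potassium-chloride exporters Slc12a4 (4.65 ± 1.18 FPKM in CSF1, 0.155 ± 0.0656 FPKM in WT) and Slc12a7 (2.73 ± 0.196 FPKM in CSF1, 0.469 ± 0.148 FPKM in WT). Slc12a2, the cotransporter NKCC1 that loads secretory cells with chloride, was at 356, 289 and 174 FPKM in CSF1 and at 356, 379 and 392.4 FPKM in WT and did not pass (limma adjusted p = 0.132). Of 4 mechanosensitive channel genes 2 were higher, and Piezo1 was at 5.35, 6.14 and 7.48 FPKM in CSF1 and at 1.07, 1.29 and 1.37 FPKM in WT (limma adjusted p = 0.00028). The other, Tmem63a, was at 32.1 ± 4.46 FPKM in CSF1 and at 14.0 ± 3.91 FPKM in WT. The proton channel gene Hvcn1, which phagocytes express, was at 3.02, 3.53 and 8.96 FPKM in CSF1 and at 0.279, 0.706 and 0.450 FPKM in WT. In CSF1 it was highest in replicate 8 like the macrophage markers. In WT it was highest in replicate 5, and the markers in replicate 8. The part of these markers in the Hvcn1 result was not tested. Calcium entry and release genes were higher in 2 of 7 tested, Orai2 (4.97 ± 1.28 FPKM in CSF1, 2.12 ± 0.927 FPKM in WT) and the IP3 receptor gene Itpr3 (3.09 ± 0.750 FPKM in CSF1, 1.20 ± 0.370 FPKM in WT). Of 4 tested TRP channels outside the name rule, Mcoln2 (2.85 ± 1.24 FPKM in CSF1, 0.673 ± 0.209 FPKM in WT) and Pkd2 (4.49 ± 1.49 FPKM in CSF1, 1.72 ± 0.117 FPKM in WT) were higher. The lysosomal channel gene Tpcn2 and the bicarbonate transporter gene Slc4a7 were higher as well, with log2 changes of 0.73 and 0.93.

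The 5 lower genes were spread over 4 groups. Besides Lrrc52 they were the calcium channel beta subunit gene Cacnb3 (9.54 ± 1.32 FPKM in CSF1, 16.5 ± 1.86 FPKM in WT), the scaffold gene Slc9a3r2 (20.6 ± 4.67 FPKM in CSF1, 39.2 ± 1.61 FPKM in WT), and P2rx5 (0.662 ± 0.134 FPKM in CSF1, 2.12 ± 0.823 FPKM in WT) and P2rx6 (3.40 ± 0.405 FPKM in CSF1, 6.62 ± 1.86 FPKM in WT), which encode ATP-gated channels. Another ATP-gated channel gene, P2rx2, was higher, at 22.5 ± 3.37 FPKM in CSF1 and at 10.7 ± 1.06 FPKM in WT (limma adjusted p = 0.00203). The aquaporin list had 3 tested genes, of which Aqp1 was higher (3.53 ± 1.26 FPKM in CSF1, 0.354 ± 0.109 FPKM in WT) and 2 did not pass. The acid-sensing channels had none at 1 FPKM.

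**Figure D4:**
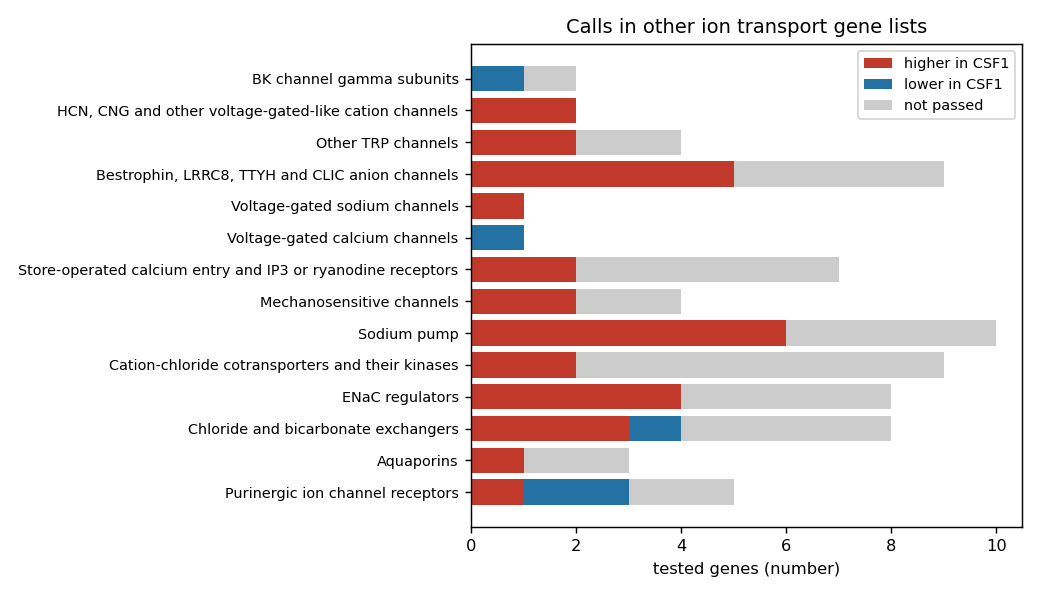
Number of tested genes in each of 14 ion transport lists that were higher in CSF1, lower in CSF1 or did not pass by limma at an adjusted p of 0.05. The sodium pump list has the most higher genes, 6 of 10, and lower genes stand in 4 lists.

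Cufflinks' own confidence intervals were compared for the most abundant transcript of each called gene. In 14 of the 15 called channel genes, the intervals of all CSF1 libraries lay apart from those of all WT libraries, and Trpv2 was the exception. These intervals cover the estimate within a library and not the spread between libraries. The genes had been called on these same values, so the count is no separate support. No such share was computed over all genes. For Kcne3 the transcript compared held 26.4% to 43.3% of the gene's FPKM in the CSF1 libraries.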

How the data were processed

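For each library the deposited Cufflinks isoform table holds FPKM per transcript, per the file headers, with the bounds of Cufflinks' confidence interval in the same unit. The deposited coverage signal is the mean read depth over a transcript. The submitters' processing notes name bcl2fastq 1.8.3, TopHat, Cufflinks and the build mm10. Per the labels' protocols, cDNA was primed with both random and oligo-dT primers. The strandedness of counting is not given in the sources used here. Loci start positions in the tables count from 0 and are printed from 1.

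FPKM were summed per gene symbol. The 9 genes with a failed or skipped status in any library were left out, none of them a channel gene. Genes whose mean over all libraries reached 1 FPKM were tested as log2(FPKM + 1) with limma 3.58.1 in R 4.3.3 (intensity trend, two-sided, Benjamini-Hochberg, threshold 0.05). No fragment totals are given, so no counting intervals were made. In simulated data on 10951 genes, 66% of genes with a log2 rise of 1 and 62% with a log2 fall of 1 were recovered, 90% at 2 and 100% at 3. Each size of change was planted in 50 genes, all with a mean WT log2(FPKM + 1) above 2. Changed genes were thus a far smaller share than the 32.4% called in the data, and adjusted p-values depend on that share. Noise was drawn independently for each gene. The rates are therefore not those of the real test. They also do not cover genes of lower WT level, such as Kcne3 and the CLCA genes.

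Deviations of same-numbered CSF1 and WT libraries from their group means were positively correlated (0.26, 0.11 and 0.18 for numbers 3, 5 and 8). With 3 libraries in each group this is weak evidence that the numbers pair the libraries. The main test used no pairing, so its SEs and p-values ignore any pairing by number. The labels do not state what the numbers mean, and they may be parts of dates. Alternatives were a replicate block, pseudocounts of 0.1 and 5, no filter and a filter of 5 FPKM, quantile normalization, median-ratio scaling, no intensity trend, and leaving out each library.

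Members and lists were chosen with earlier results of these data known. All channel genes at 1 FPKM or more in a group mean are named. By rule, values in each library are given for called genes with a change of at least 2-fold, the 3 most abundant of a class and those at 10 FPKM. Of each other list, up to 2 called genes with the largest log2 change are named, and Lrrc26. A few such genes and sequences are not reported here. Nedd4l, Slc12a2, P2rx6, Scnn1g and Cftr were named after their values were seen.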

Additional observations from a re-analysis of the deposited data

How the results depend on the processing

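All 15 calls of channel genes held with the replicate block, with 12 higher and 3 lower. The number of higher channel genes was 20 with no filter on low values, where Cftr, Clca3a1, Kcna3, Kcnf1, Kcnj15, Kcns3, Scnn1g, Trpm2 and Trpv4 were added and Trpv2 was lost, and 7 with a filter of mean 5 FPKM, where 1761 were higher over all genes and Kcnq1, Kcnab3, Kcne4, Trpv2, Clca1 and Clca3b were not tested. Trpv2 has no value without CSF1 replicate 8, where it lay under the filter. Leaving out 1 library gave 10 to 12 higher and 2 to 3 lower channel genes. Over all genes, quantile normalization gave 1694 higher and 2362 lower, and put the median log2 change of all genes at -0.16, against 0.17 as deposited. Median-ratio scaling gave 1677 lower over all genes, with a median of -0.01. Of called genes 77.0% were higher as deposited, 41.8% with quantile normalization and 56.0% with median-ratio scaling. For channel genes these shares were 80.0%, 71.4% and 78.6%. Leaving out 1 library gave 478 (without WT replicate 5) to 850 lower genes and 2053 to 2489 higher genes over all genes, and 526 lower without WT replicate 8. No called channel gene changed direction under these alternatives. Among genes that did not pass, the log2 change turned negative with quantile normalization for Kcnip3 (-0.10), Trpm7 (-0.33), Clcn2 (-0.52), Clcn4-2 (-0.018), Clcn7 (-0.26), Ano10 (-0.25), Scnn1b (-0.20) and Trpc4ap (-0.16), and with median-ratio scaling for Trpm7 (-0.15), Clcn2 (-0.055), Clcn7 (-0.12), Ano10 (-0.12), Scnn1b (-0.11) and Trpc4ap (-0.17). Leaving out 1 library turned the sign within -0.079 to 0.080 for Kcnk1, -0.28 to 0.0088 for Trpm4, -0.077 to 0.17 for Trpm7, -0.059 to 0.19 for Clcn2, -0.18 to 0.045 for Clcn3, -0.11 to 0.25 for Ano10, -0.24 to 0.35 for Scnn1b and -0.10 to 0.15 for Trpc4ap. The cause was not tested. WT libraries were shallower, which limits the precision of values near 0 there.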
